A study of Mus musculus with 14 samples.

Results

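Ribosome footprints of mouse embryonic fibroblasts with METTL3 knocked down were compared with those of fibroblasts that carried a scrambled control (Scram). The comparison was made within each of 2 replicate numbers and set against each other 4 of the 14 libraries of the series, all of them Ribo-seq. Over all Ribo-seq libraries of the series, footprints were listed for 13289 genes, of which 9152 passed the filter on low values and were tested. The series also holds RNA-seq of the same groups, both assays for knockdown of ABCF1, a ribosome-associated protein of the ABC family that acts in initiation, and 1 library per assay after the mTOR inhibitor Torin1. Its title names the translation of mRNAs without the cap-binding complex eIF4F. METTL3 knockdown cells and Scram cells were both of the C57BL/6J strain, were grown in serum and had cycloheximide in the wash and the lysis buffer, so all groups share the drug that stalls elongating ribosomes. The labels give neither the hairpin sequences nor whether a line is a clone or a pool, do not say which libraries received the DMSO vehicle, and leave unstated whether the replicates came from separate cultures. The p-values below therefore measure only the spread between libraries, which may be technical. For footprints these were 6 libraries, the 4 compared and the 2 of ABCF1 knockdown. The ABCF1 knockdown libraries also entered the filter and the scaling.

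N6-methyladenosine (m6A) is the most common internal mark of mRNA. METTL3 is the catalytic subunit of the nuclear complex that writes it, together with METTL14 and WTAP, mostly at an adenosine inside a short consensus whose most used form is GGACT, and often in long exons and near the stop codon. Reader proteins of the YTHDF and IGF2BP families bind marked mRNAs and alter how long they last and how well they are translated. In Ribo-seq the fragments of mRNA shielded by ribosomes are sequenced, so a footprint level follows both the amount of an mRNA and the number of ribosomes on it, and RNA-seq of the same cells gives the first of these.

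The deposited unit is RPKM, reads per kilobase of coding sequence normalised to library depth. Levels below are RPKM after the libraries were scaled to a common median, and differences are METTL3 knockdown minus Scram in log2(scaled RPKM + 1), a scale that understates changes of low genes. The depths implied by the files were 2584477 and 2482737 reads in the METTL3 knockdown libraries of replicates 1 and 2, against 4778822 and 3855973 reads in the Scram libraries, so the knockdown libraries were the shallower ones in both replicates. Libraries with the same replicate number were alike, with correlations of log2 levels over the tested genes of 0.948 to 0.973, against 0.788 to 0.809 between the replicate numbers. The files of replicate 1 list genes from 1 read up, with 9.97% to 14.2% of the listed genes under 5 reads. In the files of replicate 2 that share was 0.0203% to 0.0308%, so a gene not listed there may have had a few reads. Of 10 fibroblast markers, 9 were listed, with a summed level of 6668.0 and 10397.7 RPKM in METTL3 knockdown cells and 7094.6 and 8472.8 RPKM in Scram cells. Fap was not listed. The endothelial markers summed to 1.82 and 0.966 RPKM in METTL3 knockdown cells and 1.24 and 1.68 RPKM in Scram cells, and Pecam1, Cdh5 and Tie1 were not listed. Other lists were not near 0: epithelial markers summed to 127.7 and 227.9 RPKM in METTL3 knockdown cells and 202.5 and 229.5 RPKM in Scram cells, and skeletal muscle markers to 159.3 and 9.66 RPKM in METTL3 knockdown cells and 84.1 and 11.5 RPKM in Scram cells. Cldn4, Krt5, Myod1 and Ckm were not listed, and the part of such cells in the results was not tested.

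Footprints on Mettl3 itself were fewer in the knockdown cells. Mettl3 (chr14:52294841-52305128, minus strand, GRCm38) had 2.33 and 4.59 RPKM in METTL3 knockdown cells, from 10 and 20 reads, against 18.7 and 12.2 RPKM in Scram cells, from 149 and 86 reads. Both knockdown libraries lay below both Scram libraries. Per unit of depth the knockdown libraries held 12.4% of the Scram reads in replicate 1 (exact 95% interval 5.83 to 23.5) and 36.1% in replicate 2 (21.0 to 59.3), intervals that cover counting error only. The log2 difference was -2.57 in replicate 1 and -1.24 in replicate 2, and -1.90 in the fit (SE 0.36), with an unadjusted p of 0.0011 and an adjusted p of 0.146 in limma, so Mettl3 did not pass the threshold over all genes. Its RNA was also lower, at 3.01 and 3.99 RPKM in METTL3 knockdown cells and 10.3 and 5.61 RPKM in Scram cells. In ABCF1 knockdown cells Mettl3 footprints stood at 12.3 and 16.3 RPKM, within the Scram range.

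Of the 9152 genes, 1 was called lower (0.0109%) and 0 were called higher (0.0%) at an adjusted p under 0.05 in limma. At an unadjusted p under 0.05, limma gave 603 genes higher (6.59%) and 613 lower (6.7%), 13.3% together. The 1 gene that fell was Hmga2 (chr10:120361275-120476469, minus strand, GRCm38), which encodes an architectural chromatin protein of embryonic and proliferating cells and is a textbook target of the let-7 microRNAs. Hmga2 had 23.9 and 16.4 RPKM in METTL3 knockdown cells, against 159.7 and 125.7 RPKM in Scram cells. The groups did not overlap, and the gap between them was several times the gap within either. The log2 difference was -2.69 in replicate 1 and -2.86 in replicate 2, and -2.78 in the fit (SE 0.20, adjusted p = 0.0251, limma). By reads, the knockdown libraries held 14.9% of the Scram value in replicate 1 (exact 95% interval 9.31 to 22.8) and 12.6% in replicate 2 (7.04 to 20.9). In bulk samples like these, fewer cells of a type and less RNA per cell cannot be told apart.

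The Hmga2 call ended without the replicate number as a block, where limma called 0 genes (0.0%) and gave 132 higher (1.44%) and 161 lower (1.76%) at an unadjusted p under 0.05. It also ended with the knockdown library of replicate 2 left out, with a pseudocount of 0.1 RPKM, with no filter on low values and without a trend in the variance. Over these 5 settings the Hmga2 log2 change lay between -2.83 and -2.71. Hmga2 footprints in ABCF1 knockdown cells, at 84.7 and 62.4 RPKM, lay between the values of METTL3 knockdown and Scram cells. The kept Hmga2 transcript holds GGACT at 4 places, all in the 3′ UTR. The one nearest to the stop codon lies at chr10:120364060-120364084 on the minus strand of GRCm38, 216 bases past it in the GENCODE M21 model. It is printed 5′ to 3′ with the motif in capitals because GGACT is the form that METTL3 is known to prefer, and whether it carries m6A was not measured.
Hmga2: accttgagaaGGACTatattaatca

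The replicates moved together only weakly over all genes. The log2 differences of replicates 1 and 2 had a correlation of 0.26 across the 9152 tested genes and of 0.30 across the 3209 genes with at least 100 reads in each of the 4 libraries. These correlations are across genes, which are not independent replicates. The SD of the differences was 0.58 in replicate 1 and 0.72 in replicate 2. In both replicates together 2644 genes were higher (28.9%) and 2523 were lower (27.6%), whereas 3859 went in opposite directions (42.2%). A change of at least 1.5-fold in the same direction in both replicates was shown by 329 genes higher (3.59%) and 355 lower (3.88%), against 235 with such changes in opposite directions (2.57%). With at least 20 reads in the higher library of each pair, the counts at 2-fold were 42 genes higher, 68 lower and 8 in opposite directions among 7538 genes. The plot of replicate 2 against replicate 1 shows this cloud, with the genes of the largest differences in its lower left and upper right corners.

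**Figure D1:**
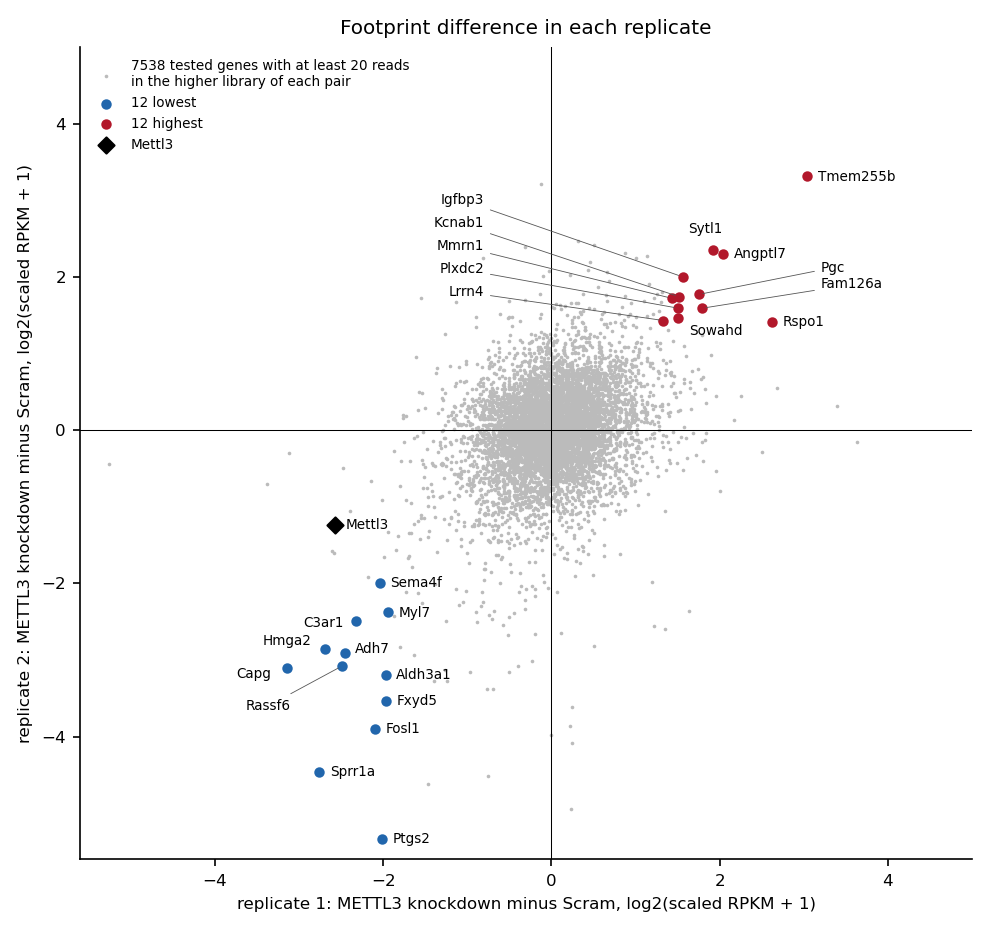
Log2 difference of footprints, METTL3 knockdown minus Scram, in replicate 1 (x axis) and replicate 2 (y axis), in log2(scaled RPKM + 1). Each grey point is 1 of 7538 tested genes with at least 20 reads in the higher library of each pair, the 12 genes with the largest shared decrease are blue, the 12 with the largest shared increase are red and Mettl3 is the black diamond at -2.57 and -1.24.

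The replicate 1 files often list several transcripts of a gene and the replicate 2 files list 1, so the transcript kept over all libraries held under 50% of a gene's summed RPKM in replicate 1 for 802 of the 9152 genes. With the transcripts of each gene summed instead, 10373 genes could be tested, and 3 rose (0.0289%) and 7 fell (0.0675%) in limma, beside 6.67% higher and 7.34% lower at an unadjusted p under 0.05. Of these, 9 are described and drawn in the plot of levels beside Mettl3, and their levels here are summed RPKM. The lower genes described are Hmga2, Capg, Mustn1, Sgk1, Vcam1 and Lgals3. Hmga2 fell by 2.83 on the log2 scale in this fit (SE 0.20, adjusted p = 0.0126, limma).

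Capg, a protein that caps the fast-growing ends of actin filaments, had 4.31 and 15.3 RPKM in METTL3 knockdown cells, against 45.2 and 140.9 RPKM in Scram cells. It fell by 3.12 on the log2 scale in each replicate and in the fit (SE 0.35, adjusted p = 0.0407, limma). Its Scram level was far higher in replicate 2 than in replicate 1, and both knockdown values lay below both Scram values. Vcam1, an adhesion molecule that holds leukocytes through integrin VLA-4, had 26.5 and 24.4 RPKM in METTL3 knockdown cells, against 97.8 and 138.0 RPKM in Scram cells. It fell by 2.15 (SE 0.23, adjusted p = 0.0407, limma), and ABCF1 knockdown cells stood between at 47.2 and 58.8 RPKM. The kept transcripts hold GGACT at 3 places in Vcam1 (2 in the 5′ UTR, 1 in the 3′ UTR) and at 2 places in the coding sequence of Capg. The stretches shown are the 3′ UTR site of Vcam1 at chr3:116110513-116110537 on the minus strand and a coding site of Capg at chr6:72556215-72556239 on the plus strand, both GRCm38, to set beside that of Hmga2.
Vcam1: agtgttgcttGGACTgactgttgta
Capg: tcaacactggGGACTgcttcatcct

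Sgk1, a serum- and glucocorticoid-induced kinase, had 9.3 and 4.13 RPKM in METTL3 knockdown cells and 42.5 and 35.2 RPKM in Scram cells, and fell by 2.45 (SE 0.27, adjusted p = 0.0407, limma). Lgals3, which encodes the galactoside-binding lectin galectin-3, had 263.0 and 329.4 RPKM in METTL3 knockdown cells and 898.7 and 1011.2 RPKM in Scram cells. It fell by 1.69 (SE 0.20, adjusted p = 0.0491, limma), with groups that did not overlap. For both genes the replicate files list different transcripts, so on the single kept transcript Sgk1 was not tested and Lgals3 stood at -0.80 without passing. Mustn1, a small nuclear protein of the musculoskeletal system, was a low gene. It had 1.51 RPKM in METTL3 knockdown replicate 1 and was not listed in replicate 2, against 12.9 and 8.73 RPKM in Scram cells, and fell by 2.88 (SE 0.34, adjusted p = 0.0491, limma). Mustn1 rested on 1 read in the knockdown libraries and 16 and 8 reads in Scram, and its fitted change depends on the pseudocount.

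The 3 genes that rose with transcripts summed were Angptl7, Tmem255b and Arvcf. Angptl7, a secreted angiopoietin-like protein, had 15.2 and 218.5 RPKM in METTL3 knockdown cells, against 2.98 and 44.0 RPKM in Scram cells. Its level differed far more between the replicate numbers than between the groups, so the groups overlap when pooled. Within each replicate number the knockdown library was the higher, by 2.03 and 2.29 on the log2 scale, and the fit gave 2.16 (SE 0.23, adjusted p = 0.0407, limma). Arvcf, a catenin of the p120 family that binds cadherins, had 29.0 and 47.3 RPKM in METTL3 knockdown cells and 6.74 and 9.6 RPKM in Scram cells. It rose by 2.07 (SE 0.23, adjusted p = 0.0407, limma), without overlap. Tmem255b, a predicted membrane protein, had 8.4 and 9.66 RPKM in METTL3 knockdown cells, against 0.204 RPKM in Scram replicate 1 and no listing in Scram replicate 2. Its rise of 3.19 (SE 0.36, adjusted p = 0.0407, limma) rests on 22 reads in each knockdown library and on 1 read in Scram, and its size depends on the pseudocount.

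**Figure D2:**
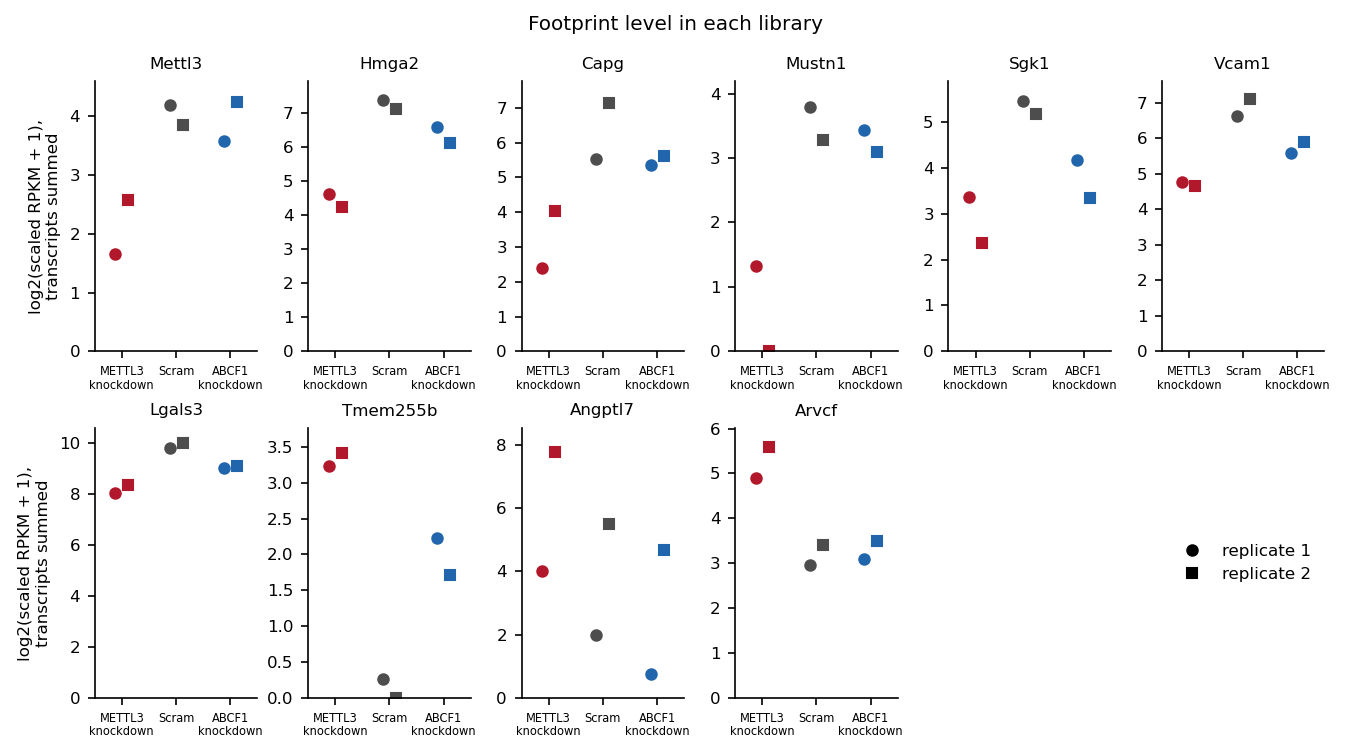
Footprint level of Mettl3 and of 9 genes called with transcripts summed, as log2(scaled RPKM + 1) on the y axis of each panel, in METTL3 knockdown (red), Scram (grey) and ABCF1 knockdown (blue) libraries. Circles are replicate 1, squares are replicate 2, points at 0 are genes not listed in that library, and the 2 METTL3 knockdown points lie on the same side of the Scram point of their own replicate in every panel.

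Beyond these, 12 genes per direction were taken by the smaller of their 2 within-replicate differences, with at least 20 reads in the higher library of each pair. The choice fixes their direction, so it is not read as a result, and levels from here on are again those of the kept transcript. The edges of the list were Myl7 at -1.94, just inside, and Plau at -1.92, just outside, on the lower side, and Lrrn4 at 1.33 and Cables1 at 1.32 on the higher side. Besides Hmga2 and Capg the lower genes held Ptgs2 and Fosl1, a pair induced by growth factors and cytokines. Ptgs2, the inducible cyclooxygenase, had 10.9 and 5.95 RPKM in METTL3 knockdown cells and 46.9 and 281.0 RPKM in Scram cells. Fosl1, the Fra-1 subunit of AP-1, had 29.6 and 19.9 RPKM in METTL3 knockdown cells and 129.7 and 312.6 RPKM in Scram cells. For both genes the knockdown libraries lay below both Scram libraries, and the Scram value of replicate 2 was the highest. Their fitted differences were -3.67 (SE 0.81, adjusted p = 0.184, limma) for Ptgs2 and -3.0 (SE 0.53, adjusted p = 0.146, limma) for Fosl1, and neither passed.

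Myl7, the atrial regulatory light chain of myosin, had 24.6 and 33.3 RPKM in METTL3 knockdown cells, against 97.2 and 178.2 RPKM in Scram cells and 252.5 and 168.2 RPKM in ABCF1 knockdown cells. The knockdown of METTL3 gave the lowest of the 3 groups in both replicates. A pair of aldehyde- and alcohol-oxidising enzymes was also in the list. Adh7, which oxidises retinol and ethanol, had 1.44 and 3.55 RPKM in METTL3 knockdown cells and 12.4 and 33.2 RPKM in Scram cells. Aldh3a1, which clears aldehydes, had 0.893 RPKM in METTL3 knockdown replicate 1 and no listing in replicate 2, against 6.42 and 8.18 RPKM in Scram cells. In each case the METTL3 knockdown libraries lay below both Scram libraries, as the rule for the list required within each replicate.

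The other 5 lower genes had few footprints. C3ar1, the receptor for complement fragment C3a, had 0.565 and 1.39 RPKM in METTL3 knockdown cells and 6.86 and 12.4 RPKM in Scram cells. Macrophage and blood markers, 3 of 9 of which were listed in each group, summed to 7.39 and 6.03 RPKM in METTL3 knockdown cells and 11 and 30.2 RPKM in Scram cells. The listed ones were Csf1r, Cd14 and Cd68, given here with transcripts summed. Csf1r had 0.257 and 1.48 RPKM in METTL3 knockdown cells and 3.7 and 3.24 RPKM in Scram cells. In the same order of groups, Cd14 had 4.45 and 1.97 RPKM against 5.67 and 14.6 RPKM. Cd68 had 2.69 and 2.58 RPKM against 1.64 and 12.4 RPKM. Ptprc, Adgre1 and Itgam were not listed in any of these 4 libraries, and the part of such cells in the result was not tested. Sema4f, a membrane semaphorin, had 0.695 and 1.88 RPKM in METTL3 knockdown cells and 5.99 and 10.5 RPKM in Scram cells. Sprr1a (a cornified envelope precursor induced in injured cells), Rassf6 (a Ras association domain protein) and Fxyd5 (a regulator of the sodium pump) had 0.395 to 1.45 RPKM in METTL3 knockdown replicate 1 and no listing in replicate 2, against 6.81 to 21.1 RPKM in Scram cells.

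The higher genes were led in abundance by Igfbp3, a secreted binding protein of insulin-like growth factors. Igfbp3 had 1424.1 and 2160.3 RPKM in METTL3 knockdown cells, against 483.0 and 539.1 RPKM in Scram cells and 877.7 and 761.6 RPKM in ABCF1 knockdown cells. The groups did not overlap, on 1914 to 4749 reads per library, and the difference of 1.78 (SE 0.25, adjusted p = 0.102, limma) did not pass. Lrrn4, a leucine-rich repeat membrane protein, had 769.6 and 532.9 RPKM in METTL3 knockdown cells and 304.6 and 197.6 RPKM in Scram cells, a difference of 1.38 (SE 0.23, adjusted p = 0.131, limma). Kcnab1, a beta subunit of voltage-gated potassium channels, had 116.9 and 158.1 RPKM in METTL3 knockdown cells and 40.0 and 46.8 RPKM in Scram cells. Its ABCF1 knockdown values, 25.8 and 44.6 RPKM, were at or below those of Scram, so METTL3 knockdown gave the highest of the 3 groups.

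Rspo1, a secreted enhancer of Wnt signalling, had 20.3 and 11.5 RPKM in METTL3 knockdown cells, against 2.46 and 3.72 RPKM in Scram cells and 2.44 and 3.87 RPKM in ABCF1 knockdown cells. Sytl1, a Rab27 effector in vesicle traffic, had 6.17 and 10.8 RPKM in METTL3 knockdown cells, against 0.896 and 1.31 RPKM in Scram cells and 0.797 and 1.2 RPKM in ABCF1 knockdown cells. For both genes the ABCF1 knockdown values were near those of Scram. The reverse held for Pgc, the precursor of the gastric protease pepsin C, with 12.4 and 13.9 RPKM in METTL3 knockdown cells, 13.8 and 16.9 RPKM in ABCF1 knockdown cells and 2.97 and 3.36 RPKM in Scram cells. Fam126a, a part of the plasma membrane complex that makes phosphatidylinositol 4-phosphate, had 38.0 and 49.0 RPKM in METTL3 knockdown cells, 30.7 and 32.2 RPKM in ABCF1 knockdown cells and 10.3 and 15.7 RPKM in Scram cells. Plxdc2 (a plexin-domain membrane protein), Sowahd (an ankyrin repeat protein) and Mmrn1 (multimerin, a carrier of coagulation factor V) had differences of 1.48 to 1.57. None of these genes passed the threshold over all genes on the kept transcript.

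RNA-seq of the same groups tested 9257 genes, and limma called 0 of them higher (0.0%) and 0 lower (0.0%), with 87 higher (0.94%) and 310 lower (3.35%) at an unadjusted p under 0.05, 4.29% together. Lars2 alone took 35.153% to 42.036% of the RNA-seq reads of replicate 2, which leaves fewer reads for other genes there. Of the 12 lower footprint genes, 10 were tested in RNA, and all 10 were lower in both RNA replicates, as 32.5% of all genes were. Of the 12 higher ones, 9 were tested in RNA, and 8 were higher in both RNA replicates, as 20.5% of all genes were. Sowahd was the exception. The plot of footprints against RNA sets both differences side by side. Its genes were chosen for large footprint differences, so smaller values in RNA follow from the choice and are not read as a result.

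Hmga2 RNA stood at 12.4 and 4.95 RPKM in METTL3 knockdown cells and 30.5 and 14.6 RPKM in Scram cells, a log2 difference of -1.31 (SE 0.22), against -2.78 in footprints. The footprint difference minus the RNA difference was -1.46 (SE 0.27, adjusted p = 0.999, limma). Capg RNA differed by -0.87 (SE 0.52), against -3.13 in kept-transcript footprints. For Vcam1 the RNA difference of -1.94 (SE 0.31) was nearly that of the footprints, -2.15 (SE 0.23). For Angptl7 RNA differed by 0.74 (SE 0.30) and footprints by 2.17 (SE 0.24), and for Igfbp3 RNA differed by 0.51 (SE 0.25) and footprints by 1.78 (SE 0.25). The transcript kept for Igfbp3 in RNA held only 34.6% of its summed RNA RPKM in replicate 1. None of these footprint-minus-RNA differences passed: of 8499 genes tested, limma called 0 higher (0.0%) and 0 lower (0.0%), with 233 higher (2.74%) and 92 lower (1.08%) at an unadjusted p under 0.05, 3.82% together.

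**Figure D3:**
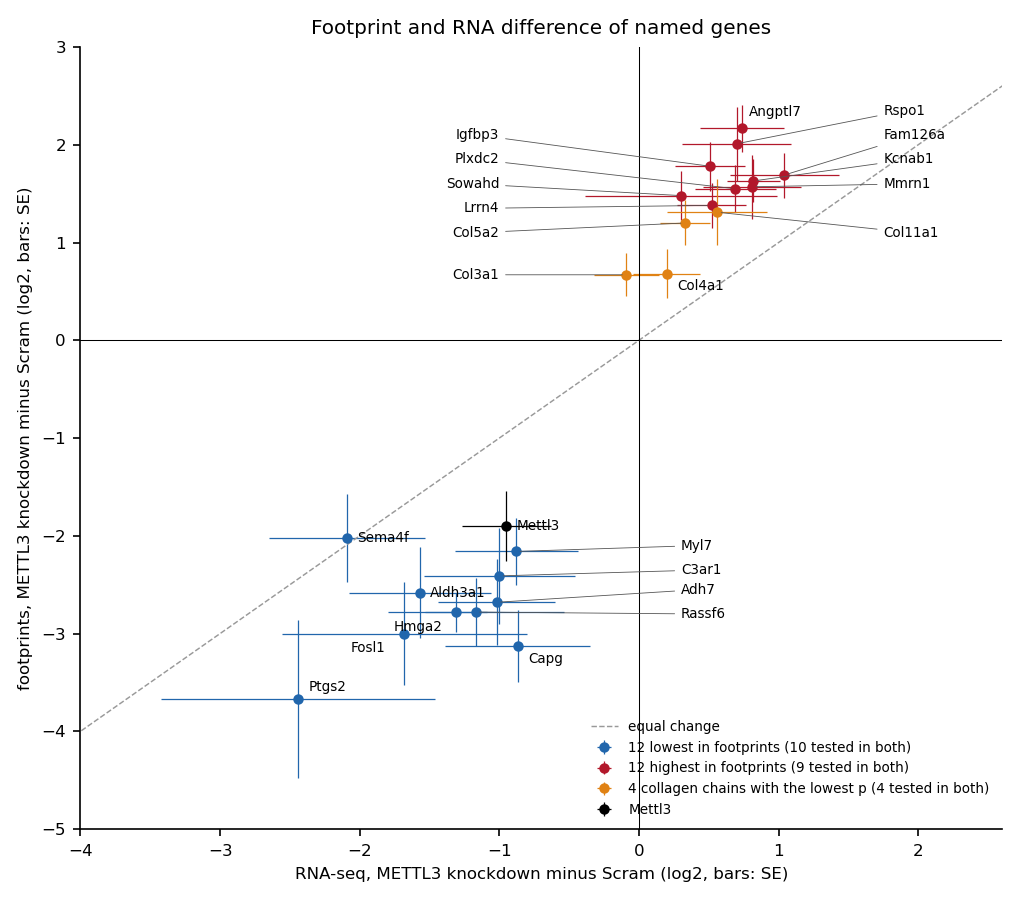
Log2 difference, METTL3 knockdown minus Scram, in RNA-seq (x axis) and in footprints (y axis), with SE bars, for the 12 lowest (blue) and 12 highest (red) footprint genes that were tested in both assays, 4 collagen chains (orange) and Mettl3 (black). The dashed line marks equal differences, and since the blue and red genes were chosen by their footprint difference, their greater distance from 0 in footprints is not a result.

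Gene lists were then read by their members' counts and medians. Over all tested genes the median difference was 0.01. Collagen chains were more often higher than lower. Of 17 written, 15 were tested, with a median difference of 0.59, and 0.27 and 1.04 in replicates 1 and 2. In both replicates 9 of the 15 were higher, beside 28.9% of all genes, and 3 were lower, beside 27.6%. Of the chains, 7 of 15 were higher at an unadjusted p under 0.05 in limma, beside 6.59%. After adjustment 0 of them passed, and 0 were lower at that unadjusted p. Col5a2, a chain of type V collagen, had 424.3 and 501.3 RPKM in METTL3 knockdown cells, against 225.9 and 177.5 RPKM in Scram cells and 204.6 and 255.9 RPKM in ABCF1 knockdown cells. Its groups did not overlap, on 3223 to 5634 reads per library, and the difference was 1.2 (SE 0.23, adjusted p = 0.151, limma).

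Col3a1, the type III chain of extensible connective tissue, had 442.3 and 735.6 RPKM in METTL3 knockdown cells, against 324.0 and 397.4 RPKM in Scram cells. Its ABCF1 knockdown values were higher still, at 494.7 and 867.0 RPKM. Col11a1, a minor fibrillar chain, had 13.0 and 3.99 RPKM in METTL3 knockdown cells and 4.12 and 1.23 RPKM in Scram cells. Col4a1, of basement membranes, had 73.7 and 172.8 RPKM in METTL3 knockdown cells and 60.7 and 80.7 RPKM in Scram cells. Each of these was higher within its own replicate number. Pooled over replicates, the groups did not overlap for Col3a1 and overlapped for Col11a1 and Col4a1. Col1a2, a chain of the abundant type I collagen, went in opposite directions, with 735.6 and 1495.3 RPKM in METTL3 knockdown cells and 1000.8 and 710.0 RPKM in Scram cells. For the collagen chains as a list, ABCF1 knockdown cells had a footprint median of 0.26 against the same Scram libraries. In RNA the collagen chains had a median difference of -0.11, beside -0.06 for all genes, and the footprint-minus-RNA median was 0.68, beside 0.08. The kept collagen transcripts had a median GC content of 57.7%, beside 50.5% for all genes.

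Other matrix genes were divided. Of 22 tested matrix and matricellular proteins, 3 were higher and 4 lower at an unadjusted p under 0.05 in limma, beside 6.59% and 6.7% of all genes, and the median was -0.02. Spp1, which encodes the secreted phosphoprotein osteopontin, had 48.4 and 41.0 RPKM in METTL3 knockdown cells and 151.3 and 321.4 RPKM in Scram cells, a difference of -2.28 (SE 0.35, adjusted p = 0.124, limma). Mgp, an inhibitor of calcification, had 41.2 and 22.8 RPKM in METTL3 knockdown cells and 121.4 and 113.2 RPKM in Scram cells, a difference of -1.90 (SE 0.27, adjusted p = 0.102, limma). Both lay below Scram without overlap. On the other side were Eln, the elastin precursor, with 2.04 and 37.9 RPKM in METTL3 knockdown cells and 0.93 and 7.57 RPKM in Scram cells, and Loxl1, a crosslinking enzyme of elastin, with 162.2 and 125.0 RPKM in METTL3 knockdown cells and 66.2 and 73.8 RPKM in Scram cells. Loxl1 differed by 1.02 (SE 0.22) and was 1 of 18 collagen modifying and crosslinking enzymes tested, whose median was 0.02.

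Among 14 tested matrix proteases and members of the plasmin system the median was -0.46, with -0.00 in replicate 1 and -0.84 in replicate 2. Their median in ABCF1 knockdown cells was -0.39 against the same Scram libraries. Plau, urokinase, had 4.05 and 12.3 RPKM in METTL3 knockdown cells and 21.8 and 49.4 RPKM in Scram cells, a difference of -2.05 (SE 0.33, adjusted p = 0.127, limma). Plau lay below Scram in both replicates. Mmp2, a gelatinase, was higher, with 197.4 and 215.1 RPKM in METTL3 knockdown cells and 123.9 and 120.4 RPKM in Scram cells.

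The medians of genes of acute growth factor signalling were below 0, and farther below in replicate 2. Of 18 tested immediate early genes and AP-1 subunits, 11 were lower in both replicates, beside 27.6% of all genes, and 1 was higher. At an unadjusted p under 0.05 in limma 7 were lower, beside 6.7%, and 1 was higher. The list median was -0.23 in replicate 1 and -1.63 in replicate 2, and the RNA medians were 0.23 and -1.51. ABCF1 knockdown cells had a median of -0.86 for this list against the same Scram libraries, beside -0.75 for METTL3 knockdown cells. Junb, a repressive AP-1 subunit, had 33.3 and 62.6 RPKM in METTL3 knockdown cells and 68.4 and 271.2 RPKM in Scram cells. The Scram library of replicate 2 was the highest for Junb, Fosl1 and Dusp6 alike.

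Of 16 tested MAPK feedback and growth factor genes, 8 were lower in both replicates and 0 higher, beside 27.6% and 28.9% of all genes, and 5 were lower at an unadjusted p under 0.05 in limma, beside 6.7%. The median was -0.14 in replicate 1 and -1.26 in replicate 2, and the RNA medians were -0.0 and -1.43. Dusp6, a phosphatase of ERK that also belongs to the immediate early list, had 45.3 and 35.6 RPKM in METTL3 knockdown cells and 85.4 and 189.7 RPKM in Scram cells. Etv5, an ETS factor downstream of ERK, had 5.11 and 6.55 RPKM in METTL3 knockdown cells and 14.9 and 29.5 RPKM in Scram cells. Hbegf, a ligand of the EGF receptor, had 23.3 and 22.3 RPKM in METTL3 knockdown cells and 42.5 and 114.1 RPKM in Scram cells. Each lay below Scram in both replicates, and ABCF1 knockdown cells were also below Scram for the list as a whole, with a median of -0.62 against the same Scram libraries.

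The 15 tested NF-kB inflammatory genes, Ptgs2 and Vcam1 among them, had medians of -0.18 and -0.83 in replicates 1 and 2. Their RNA medians were -0.34 and -1.52, and the footprint-minus-RNA median was 0.23. ABCF1 knockdown cells had a median of -0.51 for this list against the same Scram libraries. In both replicates 8 were lower, beside 27.6% of all genes, and 1 was higher, beside 28.9%. Tnfaip3, a deubiquitinase that restrains NF-kB, had 5.22 and 1.72 RPKM in METTL3 knockdown cells and 7.7 and 8.83 RPKM in Scram cells. The chemokine Ccl7 had 541.7 and 70.7 RPKM in METTL3 knockdown cells and 761.8 and 240.0 RPKM in Scram cells. Both were lower within each replicate number, by less in replicate 1.

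Contractile targets of SRF were lower more often than higher. Of 20 tested, 12 were lower in both replicates and 3 higher, beside 27.6% and 28.9% of all genes, and 3 were lower at an unadjusted p under 0.05 in limma, beside 6.7%. The median was -0.05 in replicate 1 and -0.41 in replicate 2. Acta2, smooth muscle actin of myofibroblasts, had 1024.9 and 876.2 RPKM in METTL3 knockdown cells, against 2009.1 and 2412.3 RPKM in Scram cells and 3485.0 and 2235.4 RPKM in ABCF1 knockdown cells. Its groups did not overlap, and it differed by -1.22 in footprints (SE 0.26, adjusted p = 0.176, limma) and by -1.48 in RNA (SE 0.20). Srf itself had 56.4 and 29.6 RPKM in METTL3 knockdown cells and 67.2 and 71.2 RPKM in Scram cells. Of 8 tested integrins, 3 were higher and 3 lower in both replicates, beside 28.9% and 27.6% of all genes. Their median was -0.24 on kept transcripts and 0.01 with transcripts summed. Of the 8, 2 were lower at an unadjusted p under 0.05 in limma, beside 6.7% of all genes. These were Itga6 with 7.92 and 8.3 RPKM in METTL3 knockdown cells and 17.9 and 25.5 RPKM in Scram cells, and Itga5, the fibronectin receptor chain, with 50.9 and 36.2 RPKM in METTL3 knockdown cells and 67.4 and 83.2 RPKM in Scram cells.

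Glycolysis and hypoxia genes were more often lower than higher. Of 21 tested, 12 were lower in both replicates and 0 higher, beside 27.6% and 28.9% of all genes. At an unadjusted p under 0.05 in limma 6 were lower, beside 6.7%, with medians of -0.34 and -0.46 in replicates 1 and 2. Slc2a1, the glucose transporter GLUT1, had 53.4 and 67.9 RPKM in METTL3 knockdown cells and 85.7 and 162.0 RPKM in Scram cells. Ndrg1, a hypoxia- and stress-induced gene, had 46.2 and 61.1 RPKM in METTL3 knockdown cells and 92.0 and 204.3 RPKM in Scram cells. The hexokinase Hk2 had 6.77 and 10.9 RPKM in METTL3 knockdown cells and 11.1 and 35.9 RPKM in Scram cells. All 3 stood lower in each replicate, with the larger difference in replicate 2, and the fitted differences of -1.35 (SE 0.32) for Ndrg1, -0.96 (SE 0.24) for Slc2a1 and -1.14 (SE 0.31) for Hk2 did not pass after adjustment in limma. The RNA median of the list was -0.14.

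Heat shock chaperones had medians of -0.61 and -0.32 in replicates 1 and 2, and their RNA median was -0.03. Of 15 tested, 8 were lower in both replicates and 2 higher, beside 27.6% and 28.9% of all genes, and 3 were lower at an unadjusted p under 0.05 in limma, beside 6.7%. Bag3, a partner of HSP70 in selective autophagy, had 16.8 and 27.2 RPKM in METTL3 knockdown cells and 28.4 and 45.8 RPKM in Scram cells. Hspb1, a small heat shock protein, had 80.2 and 99.8 RPKM with transcripts summed in METTL3 knockdown cells and 159.6 and 186.4 RPKM in Scram cells. Neither overlapped with Scram, and the differences of -0.73 (SE 0.22) for Bag3 and -0.94 (SE 0.20) for Hspb1 did not pass after adjustment in limma. Chaperones of the endoplasmic reticulum had a median of 0.19 over 19 genes and an RNA median of -0.03. Their footprint median for ABCF1 knockdown against the same Scram libraries was 0.2. The counts that follow are for METTL3 knockdown. In both replicates 9 were higher and 4 lower, beside 28.9% and 27.6% of all genes. At an unadjusted p under 0.05 in limma 2 were higher and 1 lower, beside 6.59% and 6.7%.

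**Figure D4:**
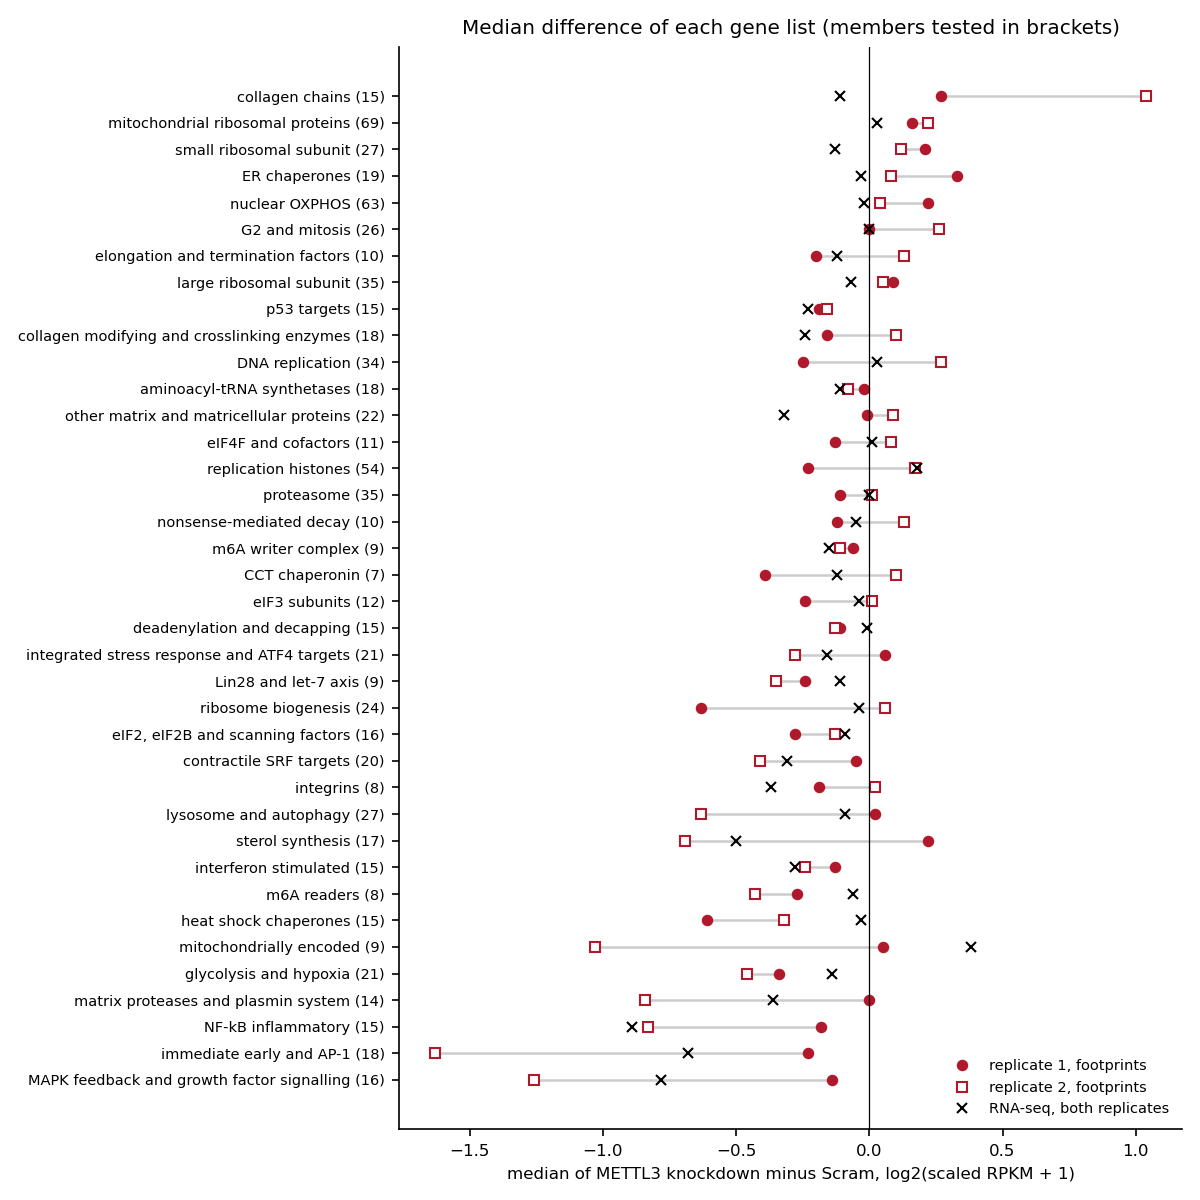
Median log2 difference, METTL3 knockdown minus Scram, of each gene list with at least 7 tested members (x axis, log2(scaled RPKM + 1)), with the number of tested members in brackets. Filled circles and open squares are footprints of replicates 1 and 2, crosses are RNA-seq, and in replicate 2 the collagen chains lie farthest to the right at 1.04 and the immediate early list farthest to the left at -1.63, against 0.27 and -0.23 in replicate 1, where other lists lie farther out.

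The rest of the m6A machinery differed little from Scram. Of 9 tested subunits of the writer complex, Mettl3 was the 1 with an unadjusted p under 0.05 in limma, and the median was -0.06. With transcripts summed, Mettl14, the partner that binds the RNA, had 13.2 and 26.6 RPKM in METTL3 knockdown cells and 16.3 and 20.6 RPKM in Scram cells, a difference of 0.03 (SE 0.26). Wtap, the regulatory subunit, had 183.6 and 55.7 RPKM in METTL3 knockdown cells and 153.0 and 68.9 RPKM in Scram cells, a difference of -0.02 (SE 0.23). In both genes the replicates went in opposite directions.

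The cytoplasmic readers, which bind the mark on mRNA and shorten or lengthen its life, leaned lower. With transcripts summed, Ythdf1 had 109.4 and 60.8 RPKM in METTL3 knockdown cells and 122.8 and 70.7 RPKM in Scram cells, Ythdf2 had 18.6 and 22.9 RPKM in METTL3 knockdown cells and 25.5 and 35.8 RPKM in Scram cells, and Ythdf3 had 18.9 and 19.4 RPKM in METTL3 knockdown cells and 23.7 and 28.5 RPKM in Scram cells. The differences were -0.19 (SE 0.20), -0.53 (SE 0.24) and -0.43 (SE 0.23), and none passed. The IGF2BP proteins, which stabilise bound mRNAs, stood at 30.4 and 29.1 RPKM for Igf2bp1, 70.8 and 36.6 RPKM for Igf2bp2 and 10.5 and 10.3 RPKM for Igf2bp3 in METTL3 knockdown cells. In Scram cells they stood at 52.9 and 37.3 RPKM, 84.1 and 67.2 RPKM, and 18.2 and 16.9 RPKM in the same order of genes. Each was lower in both replicates, and their differences of -0.56 (SE 0.22), -0.55 (SE 0.25) and -0.70 (SE 0.29) did not pass in limma. These 3 share a list with Hmga2, that of genes tied to Lin28 and let-7. In it, 3 of 9 tested genes were lower at an unadjusted p under 0.05 in limma, beside 6.7% of all genes. Those genes were Hmga2, Igf2bp1 and Igf2bp3, all described above, and the lists were chosen with earlier results known. The count is therefore not read as a separate result. The list median was -0.19, beside 0.01 for all genes.

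Lists of initiation factors had medians a little below that of all genes, 0.01. The median was -0.03 over 11 tested members of eIF4F and its cofactors and -0.12 over 12 subunits of eIF3. Of these eIF3 subunits 0 had an unadjusted p under 0.05 in limma, beside 13.3% of all genes. Over 16 members of eIF2, eIF2B and the scanning factors the median was -0.19. In both replicates 8 of the 16 were lower and 1 higher, beside 27.6% and 28.9% of all genes. Against the same Scram libraries, the median of this list in ABCF1 knockdown cells was -0.25, beside 0.03 for all genes. Abcf1, the target of the other knockdown, had 42.9 and 110.9 RPKM in METTL3 knockdown cells, 18.9 and 46.0 RPKM in ABCF1 knockdown cells and 52.5 and 92.0 RPKM in Scram cells. METTL3 knockdown cells thus kept Abcf1 near Scram, with a difference of -0.01 (SE 0.23), lower in replicate 1 and higher in replicate 2. Ribosomal proteins had medians of 0.19 over 27 genes of the small subunit and 0.04 over 35 of the large subunit. Their many processed pseudogenes make the counts of single genes uncertain.

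Both knockdowns were set against the same Scram libraries, so their differences share those libraries and are given side by side only. The direct difference of METTL3 knockdown minus ABCF1 knockdown leaves the Scram levels out of its size only. The Scram libraries were part of the fit, so the SE, p-values and calls of this difference depend on them too. It had 2 genes called higher (0.0219%) and 3 lower (0.0328%) of 9152 in limma. Angptl7 had 16.4 and 201.5 RPKM in METTL3 knockdown cells, 0.767 and 22.3 RPKM in ABCF1 knockdown cells and 3.23 and 40.0 RPKM in Scram cells, and was higher by 3.21 over ABCF1 knockdown (SE 0.24, adjusted p = 0.0254, limma). Mmp23, a membrane-anchored metalloprotease, had 35.5 and 11.9 RPKM in METTL3 knockdown cells, 2.81 RPKM and no listing in ABCF1 knockdown cells and 12.3 and 6.95 RPKM in Scram cells. These were the higher genes, and METTL3 knockdown lay above Scram and ABCF1 knockdown below it for both.

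The lower ones described are Cbr2 and Mfap5. Cbr2, a carbonyl reductase, had 0.551 RPKM in METTL3 knockdown replicate 1 and no listing in replicate 2, against 22.7 and 19.1 RPKM in ABCF1 knockdown cells, with 5.35 and 10.4 RPKM in Scram cells. Mfap5, a glycoprotein of elastic microfibrils, was not listed in either METTL3 knockdown library, against 21.6 and 11.8 RPKM in ABCF1 knockdown cells, with 4.86 and 3.5 RPKM in Scram cells. For both genes Scram lay between the knockdowns. The fitted differences, -4.13 (SE 0.40, adjusted p = 0.0422, limma) for Cbr2 and -4.09 (SE 0.33, adjusted p = 0.0254, limma) for Mfap5, depend on the pseudocount because of the unlisted libraries.

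Footprint differences followed the number of GGACT motifs only slightly. The letters GGACT were searched on the sense strand of the kept transcript of 9139 tested genes, of which 91.9% held at least 1 and 39.9% held 1 within 200 bases of the stop codon. The median difference was 0.01 for the 738 transcripts with no GGACT, -0.00 for those with 1 to 2, -0.01 for 3 to 5, 0.03 for 6 to 9 and 0.06 for the 457 with 10 or more. Each median lies well inside the quartiles of every other group, such as -0.16 to 0.32 for 10 or more. In RNA the medians were -0.05 with no GGACT and -0.14 with 10 or more, and the footprint-minus-RNA medians were 0.06 and 0.23. Transcripts with 10 or more had a median coding length of 3789 bases, beside 1380 for all genes. They also had a lower footprint level in Scram. The parts of length and level were not tested. With a GGACT within 200 bases of the stop codon the median was 0.03, and without one it was -0.01. A GGACT is a description of the sequence and not a methylated site, which was not measured here.

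GC content went with the differences more than the motif did. By quintiles of GC content the medians were -0.11, -0.05, -0.00, 0.06 and 0.14 from low to high, and the correlation across genes was 0.17, with 0.06 in replicate 1 and 0.20 in replicate 2. The transcripts in the highest quintile had a median GC content of 58.4% and those in the lowest quintile 42.2%. In RNA the medians of the lowest and highest quintiles were -0.02 and -0.05, so the order was not seen there. The part of GC content in any single gene's difference was not tested.

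**Figure D5:**
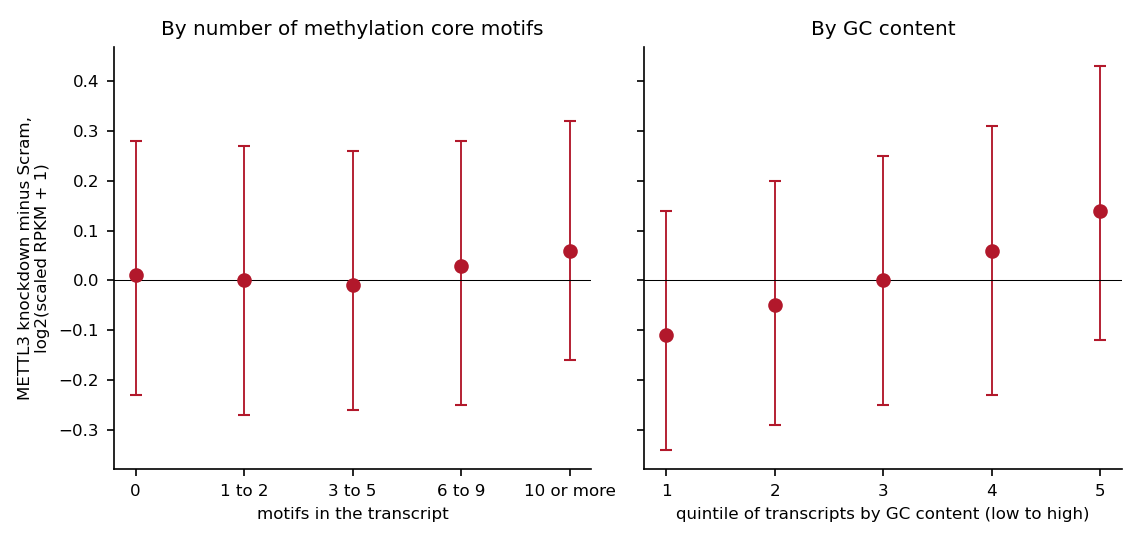
Median log2 difference of footprints, METTL3 knockdown minus Scram (y axis, log2(scaled RPKM + 1)), by the number of GGACT motifs in the transcript (left) and by quintiles of transcript GC content (right). Points are medians over genes and bars run from the lower to the upper quartile; the medians span -0.01 to 0.06 by motif number and -0.11 to 0.14 by GC content.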

How the data were processed

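The deposited files give 1 RPKM value per Ensembl transcript for each library. Per the submitters' processing notes, cutadapt and Bowtie were used with the build GRCm38. Their versions, the gene models and any rule on multiply mapped reads were not given in the sources used here. Multiplying RPKM by the coding length of GENCODE M21 gave whole reads (within 0.02) for 98.67% to 98.84% of Ribo-seq values and by transcript length for 80.69% to 85.52% of RNA-seq values, and these steps gave the depths. Identifiers were matched to GENCODE M21, which supplies the transcript sequences, for 18114 transcripts of 13289 genes.

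For each gene the transcript listed in most of 6 Ribo-seq libraries was kept, and among ties the one with the highest mean RPKM. In RNA-seq the transcript was chosen by the same rule within that assay, so it can differ from that of the footprints. A gene was tested if listed in at least 4 of the 6 (METTL3 knockdown, ABCF1 knockdown and Scram, 2 each) with a mean of at least 1 RPKM. Libraries were scaled to a common median, and log2(RPKM + 1) was fitted with limma 3.58.1 in R 4.3.3 (lmFit, contrasts.fit, eBayes with trend), with the replicate number as a block, 2 residual degrees of freedom and Benjamini-Hochberg adjustment over all tested genes. Calls were made at an adjusted p under 0.05. Footprint minus RNA is an interaction contrast over both assays. Deviations from the group means of libraries with the same number correlated at 0.849, 0.895 and 0.858. The files of the 2 replicate numbers also list transcripts differently, so these values do not show that cultures were paired. The fit was also run on simulated reads with known changes. These had the same noise setting for every gene, so they do not show how the fit performs on the real spread.

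Genes are named by a rule: Mettl3; genes called; the 12 per direction described in the text; up to 4 members of each list with the lowest p; and Mettl14, Wtap, Ythdf1, Ythdf2, Ythdf3, Abcf1 and Hmga2. Genes called with transcripts summed and a few mesothelial genes were added after their values were seen. The gene lists and the genes of interest were chosen with earlier results of these data known. Alternatives covered the block, pseudocount, filters, scaling, transcript choice, libraries in the fit and each replicate left out. Some genes that met the naming rule are not reported here.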

Additional observations from a re-analysis of the deposited data

How the results depend on the processing

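The number of genes called for METTL3 knockdown minus Scram in footprints, 1 as reported, depended on the settings. It was 0 without the replicate block (293 genes at an unadjusted p under 0.05 in limma), 0 with a pseudocount of 0.1 RPKM, 0 without a filter on low values and 0 without a variance trend. It was 1, again Hmga2, with a pseudocount of 5 RPKM, no scaling, quantile normalization or the Torin1 library added. It was 4 among genes listed in all 6 libraries and 4 at a mean of at least 10 RPKM (Hmga2, Capg, Vcam1 and Angptl7 in both), 2 with the 4 METTL3 and Scram libraries alone, 10 with transcripts summed, 10, the same genes, with the transcript chosen within each replicate number, an alternative chosen after seeing the data, and 26 with voom on recovered reads, which shared 2 with those 10. Leaving out 1 library at a time gave 1 to 325 calls, with the lone library of a group assumed to vary like the others: 40 without METTL3 knockdown replicate 1, 1 without replicate 2 (Vps29, named after its value was seen, and not Hmga2), 325 without Scram replicate 1, 141 without Scram replicate 2, and 2 without either ABCF1 library. The cause was not tested.

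METTL3 minus ABCF1, with 5 calls, gave 0 without the replicate block, 0 with a pseudocount of 0.1 RPKM, 13 among genes listed in all libraries and 0 to 35 with 1 library left out: 35 and 2 without METTL3 knockdown replicates 1 and 2, and 0 and 2 without ABCF1 replicates 1 and 2. RNA gave 0 in all of its alternatives. Footprints minus RNA gave 0, and 0 to 2 with 1 library left out (Atp5g2, Rpl41, or Mrps36 and Nme3, named after their values were seen). Directions turned for Wtap (0.00 with the transcript chosen within each replicate number, 0.09 and 0.00 with METTL3 knockdown or Scram replicate 2 left out, and -0.28 to 0.09 over all libraries left out in turn) and Abcf1 (0.02 among genes listed in all libraries, 0.02 with quantile normalization, 0.16 and 0.24 with METTL3 knockdown or Scram replicate 1 left out, and -0.26 to 0.24 over all libraries left out in turn). Of 86 named genes recomputed in the other settings, these 2 turned. Rpl41 was not among them, and its difference was -2.85 on the kept transcript and 0.44 with transcripts summed. The 86 were only a part of the genes that met the naming rule. Outside them, other genes also turned with transcripts summed, such as Itgav (-0.4 to 0.22), Gspt1 (0.26 to -0.24) and Mad2l1 (1.86 to -0.07). Whether the lower depth of the METTL3 knockdown libraries set the number of calls was not tested.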

Other observations

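Proteins of the mitochondrial ribosome, encoded in the nucleus, were higher by a small amount. Of 77 listed, 69 were tested, with a median difference of 0.23 and with 0.16 and 0.22 in replicates 1 and 2, beside 0.01 for all genes. In both replicates 35 were higher and 10 lower, beside 28.9% and 27.6% of all genes. At an unadjusted p under 0.05 in limma 7 were higher and 1 lower, beside 6.59% and 6.7% of all genes. In the quintile of tested genes with the shortest coding sequences, 10.5% were higher at that unadjusted p in limma. The part of coding length in the result was not tested. Mrpl36, of the large subunit, had 793.5 and 188.9 RPKM in METTL3 knockdown cells and 417.2 and 117.0 RPKM in Scram cells, a difference of 0.81 (SE 0.19, adjusted p = 0.204, limma). Mrps23, of the small subunit, had 165.4 and 114.6 RPKM in METTL3 knockdown cells and 115.0 and 63.5 RPKM in Scram cells. The RNA median of the list was 0.03. The 63 tested nuclear genes of oxidative phosphorylation had a median of 0.15, and the 9 mitochondrially encoded genes had medians of 0.05 and -1.03 in replicates 1 and 2. Some of the latter had almost no reads in replicate 1, so their differences there depend on the pseudocount. In METTL3 knockdown and Scram, mt-Atp6 had 0 and 2 reads in replicate 1 and 337 and 1167 in replicate 2. As mt-Nd3 was not listed in either library of replicate 1, its difference was 0.0 there and -1.65 in replicate 2.

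Lysosome and autophagy genes were lower in replicate 2, with medians of 0.02 and -0.63 over 27 tested genes. The list median was -0.29 in METTL3 knockdown cells and -0.2 in ABCF1 knockdown cells, against the same Scram libraries. Ctsb, a cysteine protease of lysosomes, was lower in both replicates, with 884.0 and 715.0 RPKM in METTL3 knockdown cells and 1606.6 and 1338.3 RPKM in Scram cells, a difference of -0.88 (SE 0.20, adjusted p = 0.184, limma). The medians of sterol synthesis genes differed in sign between replicates, at 0.22 and -0.69 over 17 genes, and so did those of ribosome biogenesis genes, at -0.63 and 0.06 over 24 genes. Against the same Scram libraries, the medians in ABCF1 knockdown cells were -0.27 and -0.33 for these lists in that order. In METTL3 knockdown cells they were -0.29 and -0.19. Of 15 tested interferon-stimulated genes, 1 was higher and 3 lower at an unadjusted p under 0.05 in limma, beside 6.59% and 6.7% of all genes. Their median was -0.30 on kept transcripts and 0.07 with transcripts summed. The class I chain H2-K1, whose reads near-identical class I genes can share, had 34.4 and 68.7 RPKM with transcripts summed in METTL3 knockdown cells and 81.5 and 116.3 RPKM in Scram cells. Its partner B2m had 1524.2 and 1007.4 RPKM in METTL3 knockdown cells and 1839.6 and 1891.1 RPKM in Scram cells.

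Several genes known from the mesothelium were abundant in these fibroblasts, and the 5 looked at stood higher in METTL3 knockdown cells within each replicate, none past the threshold. They were chosen after their values were seen, so their shared direction is not read as a result, and they carry no test as a group. Krt18, an abundant marker of the epithelial list, went the other way. It had 103.5 and 155.6 RPKM in METTL3 knockdown cells and 182.1 and 191.1 RPKM in Scram cells. Krt8 and Krt14 of that list went in opposite directions between the replicates. Upk3b, a uroplakin-like membrane protein, had 3857.4 and 3154.5 RPKM in METTL3 knockdown cells and 1948.3 and 1651.9 RPKM in Scram cells, a difference of 0.96 (SE 0.21, adjusted p = 0.176, limma). Wt1, a zinc finger factor of the mesothelium, had 418.5 and 428.5 RPKM with transcripts summed in METTL3 knockdown cells and 243.5 and 253.2 RPKM in Scram cells. Msln, mesothelin, had 70.8 and 98.8 RPKM in METTL3 knockdown cells and 37.2 and 76.7 RPKM in Scram cells, so its groups overlapped. Upk1b, a uroplakin, had 1155.7 and 1380.3 RPKM in METTL3 knockdown cells and 1061.8 and 1032.6 RPKM in Scram cells, a difference of 0.27 (SE 0.20). Lrrn4, described above, belongs to the same group, and the part of a differing share of such cells was not tested.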
